A study of Caenorhabditis elegans with 2 samples.

Results

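The X chromosome regions were every region of the pooled relaxed CEH-22 ChIP-seq list (peaks and background) that lay on chromosome X of build ce11. They numbered 3686 of 19644, and 71 of them also belonged to the list that the authors thresholded, whose members are called peaks here. The other pooled regions were 15948 on the 5 autosomes, 206 of them thresholded, and 10 on the mitochondrial genome. The data came from 1 group of 2 biological replicates of whole late embryos of *Caenorhabditis elegans* strain OP389, labelled mixed sex. The strain carries the *unc-119*(tm4063) mutation on chromosome III and the transgene wgIs389, which expresses CEH-22 with GFP and FLAG at its C-terminus. The labels name CEH-22 as the antibody target and do not say where the transgene is inserted. No untreated or mutant group and no control immunoprecipitation was analysed here, so X was set beside the autosomes of the same embryos. Each region has a signal value, a score from the authors' peak caller on a scale that the sources do not state, and rank 1 is the largest value of a list. The thresholded peaks are the pooled regions of largest value, and the equally many strongest regions of a replicate list are called its top list. Intervals in parentheses after a share are 95% Wilson intervals and cover counting error over regions only.

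CEH-22 is a homeodomain protein of the NK-2 class, known for switching on muscle genes in the pharynx, which pumps food into the gut. The X chromosome is present in a pair of copies in hermaphrodites and in a single copy in males. In hermaphrodites a dosage compensation complex related to condensin is recruited to X, spreads along it and lowers transcription of both copies. Recruitment sites on X are known to carry a motif enriched on X, of which CGCAGGG is the core. That sequence is called the X motif core here. The NK-2 site searched for is TCAAGTG or TTAAGTG, the sequences known to be preferred by this homeodomain class.

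The sequences around the strongest X peaks are given first because one of these motifs, the X motif core, lay at X peaks and at no autosomal peak. Each covers the summit and 100 bases to either side on the plus strand of RefSeq assembly WBcel235 (the same as ce11), with NK-2 sites and X motif cores of either strand in capitals. The 3 strongest X peaks follow. Their ranks in the whole pooled list were 16, 18 and 20.
rank 16 (chrX:11094102-11094302, plus strand): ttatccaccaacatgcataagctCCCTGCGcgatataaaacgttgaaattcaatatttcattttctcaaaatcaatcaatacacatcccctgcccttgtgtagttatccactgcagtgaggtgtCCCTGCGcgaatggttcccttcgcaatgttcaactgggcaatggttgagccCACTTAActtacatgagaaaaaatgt
rank 18 (chrX:16612435-16612635, plus strand): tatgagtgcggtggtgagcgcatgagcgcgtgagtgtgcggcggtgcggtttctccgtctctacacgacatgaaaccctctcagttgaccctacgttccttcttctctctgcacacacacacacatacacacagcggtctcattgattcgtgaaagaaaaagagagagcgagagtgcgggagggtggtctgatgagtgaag
rank 20 (chrX:5429408-5429608, plus strand): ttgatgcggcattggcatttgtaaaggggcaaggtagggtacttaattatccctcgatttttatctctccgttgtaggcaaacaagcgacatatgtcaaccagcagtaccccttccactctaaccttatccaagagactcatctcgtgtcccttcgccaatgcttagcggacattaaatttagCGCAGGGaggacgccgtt
The rank 16 window held a pair of X motif cores, both read as CCCTGCG on this strand, and an NK-2 site read as CACTTAA. The rank 18 window held neither motif, and the rank 20 window held 1 core. Of the 6 X peaks with an NK-2 site, those at ranks 88, 98 and 239 are not shown. Windows of the 2 others follow, upstream of *dlg-1* (rank 25) and in an intron of *act-4* (rank 173), with only NK-2 sites in capitals.
rank 25 (chrX:5475264-5475464, plus strand): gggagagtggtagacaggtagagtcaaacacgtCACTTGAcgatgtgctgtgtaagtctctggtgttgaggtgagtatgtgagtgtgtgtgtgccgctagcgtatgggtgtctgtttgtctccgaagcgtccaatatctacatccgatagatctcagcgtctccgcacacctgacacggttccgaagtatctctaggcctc
rank 173 (chrX:4961684-4961884, plus strand): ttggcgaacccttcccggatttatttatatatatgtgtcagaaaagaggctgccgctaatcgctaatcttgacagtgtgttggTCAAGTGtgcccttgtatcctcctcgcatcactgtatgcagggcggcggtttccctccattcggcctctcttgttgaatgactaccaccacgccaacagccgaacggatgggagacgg
The last set shows the 14 X motif cores that lay within 100 bp of the summits of 11 X peaks, each with the 14 bases to either side, written on the strand that reads CGCAGGG and with the core in capitals.
rank 16 (chrX:11094111-11094145, minus strand): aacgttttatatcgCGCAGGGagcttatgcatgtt
rank 16 (chrX:11094212-11094246, minus strand): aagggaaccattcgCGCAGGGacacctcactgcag
rank 20 (chrX:5429577-5429611, plus strand): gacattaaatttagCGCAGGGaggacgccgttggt
rank 22 (chrX:6296535-6296569, plus strand): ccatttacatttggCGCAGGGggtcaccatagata
rank 22 (chrX:6296563-6296597, plus strand): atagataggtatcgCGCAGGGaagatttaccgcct
rank 31 (chrX:15275780-15275814, minus strand): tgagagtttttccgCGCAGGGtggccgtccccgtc
rank 48 (chrX:4209252-4209286, minus strand): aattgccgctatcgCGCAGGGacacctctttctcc
rank 53 (chrX:16682158-16682192, minus strand): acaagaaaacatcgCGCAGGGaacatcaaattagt
rank 63 (chrX:14525886-14525920, minus strand): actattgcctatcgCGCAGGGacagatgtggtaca
rank 82 (chrX:1345043-1345077, plus strand): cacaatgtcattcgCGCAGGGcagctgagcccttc
rank 94 (chrX:16056519-16056553, minus strand): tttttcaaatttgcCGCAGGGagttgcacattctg
rank 161 (chrX:8036387-8036421, minus strand): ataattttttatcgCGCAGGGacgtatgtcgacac
rank 161 (chrX:8036422-8036456, plus strand): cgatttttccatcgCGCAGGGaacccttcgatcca
rank 247 (chrX:11937528-11937562, plus strand): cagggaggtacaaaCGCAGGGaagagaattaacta
Beyond the letters searched for, 12 of these 14 copies had G directly before the core, 12 had T 3 bases before it, and 11 had A directly after it. The pair at rank 161 lay on opposite strands, with the plus strand copy starting after the minus strand copy had ended.

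In the pooled list the 71 thresholded X peaks were denser than those of any autosome, whereas X regions as a whole were not. X makes up 17.7% of the nuclear genome. It held 18.8% (18.2 to 19.3) of all pooled regions and 24.9% (20.2 to 30.2) of thresholded peaks. Pooled regions lay at 208 per Mb on X, against 193 per Mb on the autosomes together and 168 (IV) to 214 (II) per Mb on single autosomes, so that X fell inside their range. Thresholded peaks lay at 4.01 per Mb on X, against 2.50 per Mb on the autosomes together and 1.58 (V) to 3.38 (I) per Mb on single ones. Of the X regions 1.93% (1.53 to 2.42) were thresholded, against 1.29% (1.13 to 1.48) of autosomal regions and a background of 1.45% of all pooled regions. The top list of replicate 1 had 68 regions on X, against 32 to 57 on single autosomes, and that of replicate 2 had 61 on X, against 36 to 56. X thus held 23.9% (19.3 to 29.1) of the top list of replicate 1. It held 21.4% (17.0 to 26.5) of that of replicate 2, an interval that takes in the genome share of 17.7%. Per Mb the top list of replicate 1 gave 3.84 on X, against 3.78 on chromosome I, the highest autosome. That of replicate 2 gave 3.44 on X, against 3.72 on chromosome I, so X led every autosome by density in the pooled list and in replicate 1 and not in replicate 2. The peaks compared share 1 pair of libraries, and with 1 group no test of the X share over samples was possible.

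**Figure D1:**
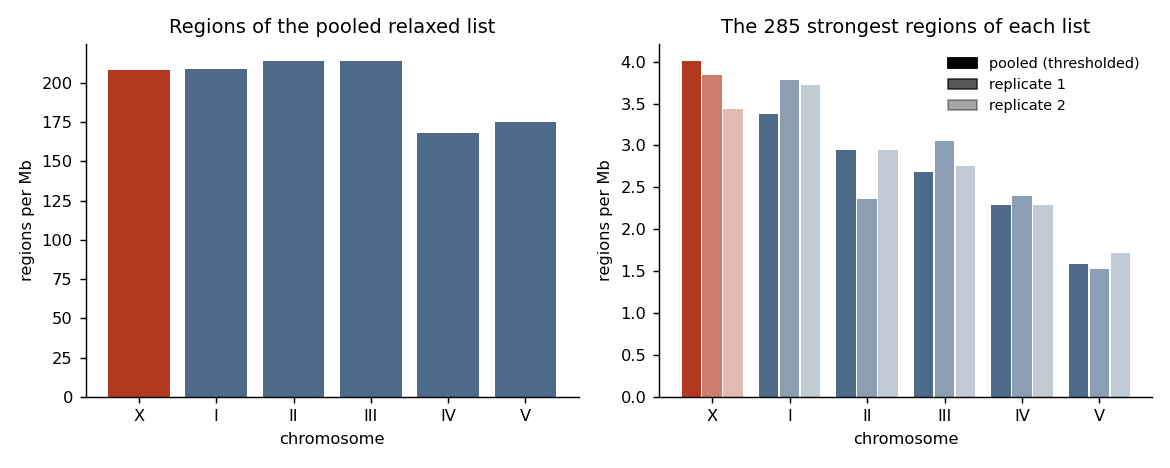
Left, regions of the pooled relaxed list per Mb of each chromosome. Right, the thresholded peaks and the top list of each replicate per Mb. X is in red and the 5 autosomes in blue. In the pooled list X had 208 regions and 4.01 thresholded peaks per Mb, and the bars hold 1 value each, without error.

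Over the whole list, signal values on X were close to those on the autosomes. The median signal value was 12.1 on X and 12 on the autosomes. The median rank percentile, where 0 is the strongest region and 100 the weakest, was 49.2 for X regions and 48.3 (I) to 52.8 (V) for single autosomes. The strongest 10% of the pooled list took in 10.8% of X regions and 9.77% of autosomal regions, with chromosome I (11.4%) above X. X peaks inside the thresholded list had a median signal value of 43.0 with a highest value of 81.9, and autosomal peaks a median of 39.4 with a highest value of 214. X thus had more thresholded peaks than any single autosome (33 to 51) and a higher median than any of them (37.4 to 41.6), while the highest values were autosomal. The weakest thresholded X peak ranked 283 at 32.3, and the strongest X region outside the list ranked 298 at 31.8.

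Regions covered X evenly from end to end. The first region started at 12318 and the last ended at 17714274 of a chromosome of 17718942 bp. The 17 complete bins of 1 Mb held 168 to 241 regions with a median of 211. Their coefficient of variation was 9.51% on X, against 12.1% (I) to 24.0% (IV) on single autosomes, so X had the most even cover of the 6 chromosomes. Cut into 3 equal stretches, the left, middle and right of X held 1248, 1222 and 1216 regions and 20, 21 and 30 thresholded peaks. The right stretch therefore had more peaks than either other one at a like number of regions. Uneven counts were not particular to X. In the same order the stretches held 15, 19 and 17 peaks on I, 9, 18 and 18 on II, and 11, 11 and 15 on III. They held 12, 20 and 8 on IV and 8, 17 and 8 on V. Cut into 10 equal stretches, X had 5 to 7 peaks in each of the first 6 and 8 to 10 in each of the last 4. The median distance between neighbouring summits was 3029 bp. The widest stretch of X without a summit ran from 144413 to 271174, or 126761 bp, and the densest 100 kb, from 14480433 to 14580433, held 40 regions. At most 3 thresholded X peaks lay within 100 kb of each other (11004569 to 11104569), the rank 16 peak among them. The closest pair of peak summits, ranks 69 and 140 upstream of *sma-9*, lay 200 bp apart.

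**Figure D2:**
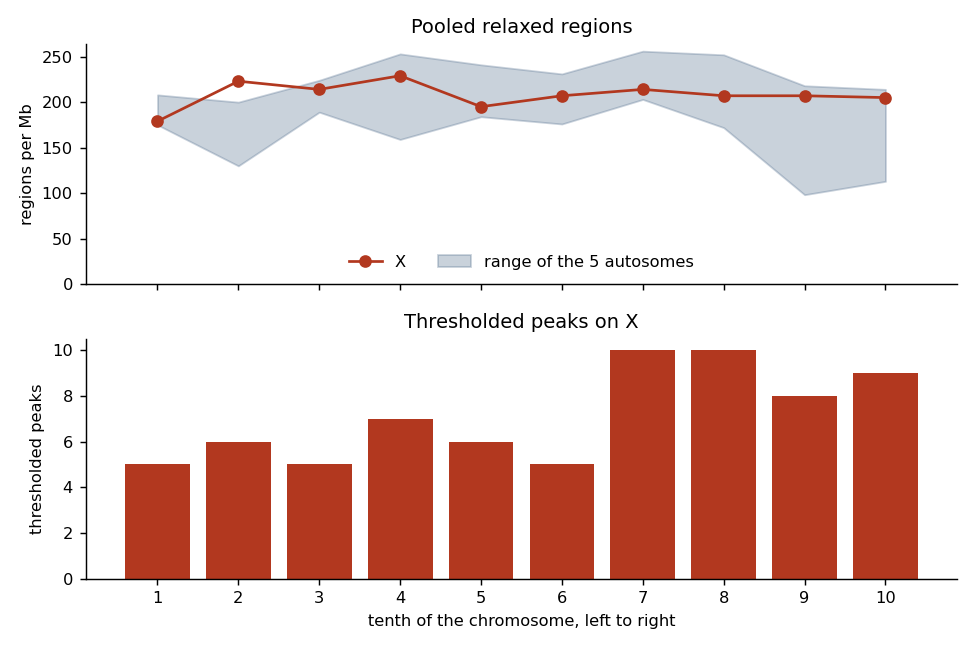
Top, pooled relaxed regions per Mb in each of 10 equal stretches of the chromosome from left to right, with X as red points and the range of the 5 autosomes shaded. Bottom, thresholded peaks of X in each stretch. Regions lay at 179 to 229 per Mb along X, and the last 4 stretches held 8 to 10 peaks each.

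X regions lay more often in intergenic DNA and less often in coding exons than autosomal regions, as does the sequence of X itself. Intergenic here means outside every annotated protein-coding gene. Of X summits 41.0% (39.4 to 42.6) were intergenic, against 31.9% (31.1 to 32.6) of autosomal summits and a background of 33.6% of all nuclear regions. Coding exons held 23.5% (22.2 to 24.9) of X summits and 32.2% (31.5 to 32.9) of autosomal ones. Introns held 30.5% and 30.8%, and untranslated exons 4.94% and 5.15%, in the same order. The composition of the chromosomes differs the same way. X is 44.5% intergenic and 20% coding, whereas single autosomes are 29.0% to 40.2% intergenic and 22.6% to 27% coding. Measured against its own sequence, the relaxed list on X therefore held fewer intergenic and more coding summits than X has bases of these classes. The same held on every autosome, so it was not particular to X. On chromosome IV, for example, 33.8% of summits and 40.2% of bases were intergenic, and 30.5% and 22.6% were coding.

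Thresholded X peaks were mostly intergenic. Of the 71 summits, 53 were intergenic (74.6%, 63.4 to 83.3), against 64.6% (57.8 to 70.8) of autosomal peaks, with overlapping intervals. Another 16 lay in introns, 1 in an untranslated exon (of *alg-1*) and 1 in a coding exon (of *pks-1*), so coding exons held 1.41% of thresholded X peaks, against 24.0% of the X regions outside the thresholded list. Autosomal peaks had a like share of 2.91%, against 32.6% of the autosomal regions outside it. In the top list of replicate 2 the coding share of X regions was 9.84% (6 of 61), and in that of replicate 1 it was 1.47%. A promoter window, which reaches 1000 bp upstream and 200 bp downstream from the annotated start of a protein-coding gene, held 24 of the 71 (33.8%, 23.9 to 45.4), against 40.8% (34.3 to 47.6) of autosomal peaks. Among all pooled regions that window held 21.5% (20.2 to 22.8) on X and 24.6% (23.9 to 25.2) on the autosomes, with a background of 24.0%. In both lists X summits were thus less often beside a 5' end, and in the thresholded list that gap was within counting error. X also has fewer protein-coding genes per Mb than any autosome, with 2731 on 17.7 Mb against 3281 on the 17.5 Mb of IV. The promoter shares were not corrected for that. No protein-coding 5' end lay within 5000 bp of 11 X peaks. Summits in repeat-masked sequence made up 21.1% of X regions and 23.5% of autosomal regions, and 4.23% of X peaks and 7.28% of autosomal peaks. The median GC content of the windows of 100 bp to either side of the summit was 50.2% in X peaks and 49.3% in autosomal peaks, against 39.3% in all X regions and 39.8% in all autosomal regions.

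**Figure D3:**
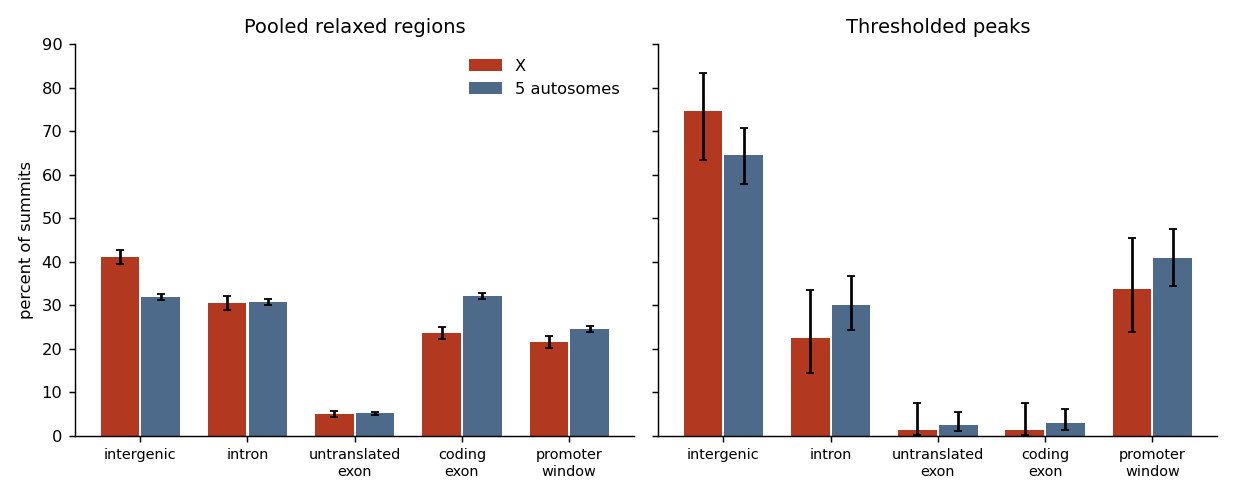
Percent of summits in each annotation class and in the promoter window (which overlaps the classes), for pooled relaxed regions (left) and thresholded peaks (right). X is in red and the 5 autosomes together in blue, and bars carry 95% Wilson intervals. Intergenic summits made up 41.0% of X regions and 74.6% of thresholded X peaks.

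Both replicates supported X regions about as often as autosomal ones. A region was counted as supported when a replicate's relaxed list had a summit within 200 bp. Of X regions 36.9% (35.4 to 38.5) had a summit in both replicates, against 35.1% (34.3 to 35.8) of autosomal regions and a background of 35.4%, so the X share was near the background. Replicate 2 matched 82.0% of X regions, replicate 1 matched 51.8%, and 3.12% had a summit in neither. The thresholded list came from IDR, which rests on how reproducible ranks are, so replicate support among its peaks is not separate evidence. Its peaks are also the pooled regions of largest value. Support was still 87.9% in the X regions next in strength, at ranks 286 to 1000. Of the 71 thresholded X peaks, 69 had a summit in both (97.2%, 90.3 to 99.2), against 97.6% (94.4 to 99.0) of autosomal peaks. The other 2 had a replicate 2 summit alone. They were the rank 100 peak in an intron of *F09A5.3* (replicate 2 value 36.3) and the rank 234 peak in an intron of *ldb-1*, a gene for a LIM domain binding protein (21.6). The replicates were less alike in order than in presence. Only 30 of the 71 (42.3%, 31.5 to 53.8) were in the top lists of both replicates, against 36.4% (30.1 to 43.2) of autosomal peaks, and 4 were among those of neither. Across the 69 peaks the signal values of the 2 replicates had a Spearman's rho of 0.0658, and across the 1361 X regions found in both a rho of 0.266. On the autosomes rho was 0.0416 over the peaks and 0.191 over the 5594 regions found in both. These are descriptions across regions of 1 pair of libraries, which are not independent, and the choice of peaks by their pooled value narrows the range that the smaller set covers.

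**Figure D4:**
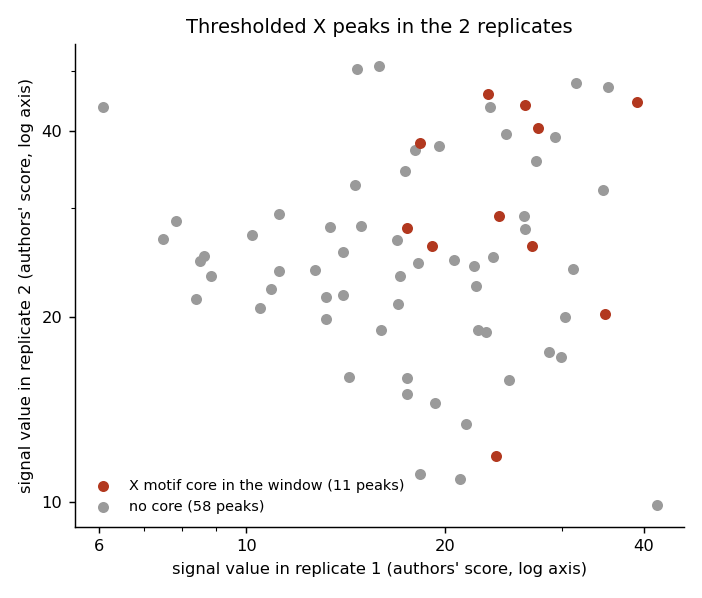
Signal values of the 69 thresholded X peaks found in both replicates, replicate 1 across and replicate 2 up, both on log axes. Red points are the 11 peaks with an X motif core and grey points the 58 others. Core peaks spanned 17.5 to 39 in replicate 1 and 11.9 to 46 in replicate 2.

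The strongest X peak, rank 16 (chrX:11094030-11094373), was intergenic and had signal values of 39 in replicate 1, 44.6 in replicate 2 and 81.9 in the pooled list. It lay 3984 bp downstream of the 5' end of *W02H3.3*, the nearest one, and beyond the gene's end. The rank 18 peak (chrX:16612363-16612706) lay 916 bp upstream of *ain-1*, which encodes a partner of Argonaute in microRNA silencing, with values of 35.3 in replicate 1, 47.2 in replicate 2 and 75.7 in the pooled list. Replicate 2 had 2 regions within 200 bp of the *ain-1* summit, ranked 23 and 4692, of which the nearer was the weak one. The rank 20 peak (chrX:5429336-5429679) lay in a coding exon of *pks-1*, a polyketide synthase gene, with 23.2 in replicate 1, 46 in replicate 2 and 72.5 in the pooled list. All 3 ranked among the 100 strongest regions of both replicates. The rank 21 summit fell inside an intron of *F09A5.3*, the gene that also holds the rank 100 peak. The rank 22 summit fell inside an intron of *mom-1*, which acts in the secretion of Wnt signals, with values of 27.6, 40.4 and 67.9 in replicate 1, replicate 2 and the pooled list. By the nearest 5' end it was assigned to *cest-16*, 3366 bp away.

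The other genes at the 20 strongest X peaks had varied roles, and none of them is on the pharynx or muscle lists described further on. Adhesion and the cytoskeleton were represented by *dlg-1*, the Discs large protein of epithelial junctions (rank 25, 4336 bp upstream), and *spc-1*, alpha spectrin (rank 26, 757 bp upstream). The *spc-1* peak had a value of 14.7 in replicate 1 (rank 298) and 50.4 in replicate 2 (rank 19), an example of the different order in the replicates. Signalling genes were *kin-20*, a casein kinase gene with an intronic peak at rank 31 and another peak 1698 bp upstream at rank 123, and *ftt-2*, a 14-3-3 protein gene (rank 35, 558 bp upstream). *sma-9*, the Schnurri orthologue of the BMP-like body size pathway, had peaks 2991 and 2791 bp upstream at ranks 69 and 140, both matched by the same replicate 2 region. *hsp-3*, an endoplasmic reticulum chaperone gene of the BiP type, had a peak 120 bp upstream at rank 50. The remaining assigned genes were *serp-1.1* (rank 34), *F20B6.9* (rank 48), *C04A11.5* (rank 49), *F22H10.2* (rank 53) and *nspc-17* (rank 63). The peak at rank 39 lay in an intron of *ZK1193.2*, and the peaks at ranks 27, 66 and 68 had neither a gene around the summit nor a 5' end within 5000 bp. Of these 20 peaks, 15 were intergenic, 6 lay in a promoter window and 18 were in the top lists of both replicates.

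An X motif core lay within 100 bp of the summit of 11 of the 71 thresholded X peaks (15.5%, 8.88 to 25.7) and of none of the 206 autosomal peaks, a count of 0 that allows a share of up to 1.46%. The background over all nuclear pooled regions was 0.504%. Outside the thresholded list the core was in 0.664% (0.447 to 0.986) of X windows and 0.407% (0.319 to 0.519) of autosomal windows. In the whole sequence the density of the core on X was inside the autosomal range, with 17 copies per Mb on X and 14.7 (IV) to 18.9 (III) per Mb on single autosomes. The search for this core was added after the X peaks had been seen, so its share is a description. Of all 8192 sequences of 7 bases, with reverse complements counted together, it had the largest difference between X peaks and autosomal peaks. Set against other X regions in place of autosomal peaks, it came 9th of 8192, behind sequences such as CACTCTC (25.4% of X peaks, 18.4% of autosomal peaks and 4.15% of other X regions), which are frequent in peaks of all chromosomes. In the replicates taken singly, the core lay at 12 of the 68 strong X regions of replicate 1 (17.6%, 10.4 to 28.4) and 10 of the 61 of replicate 2 (16.4%, 9.16 to 27.6). The autosomal regions of the same strength had 2 of 209 (0.957%) and 1 of 215 (0.465%) in the same order of replicates.

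**Figure D5:**
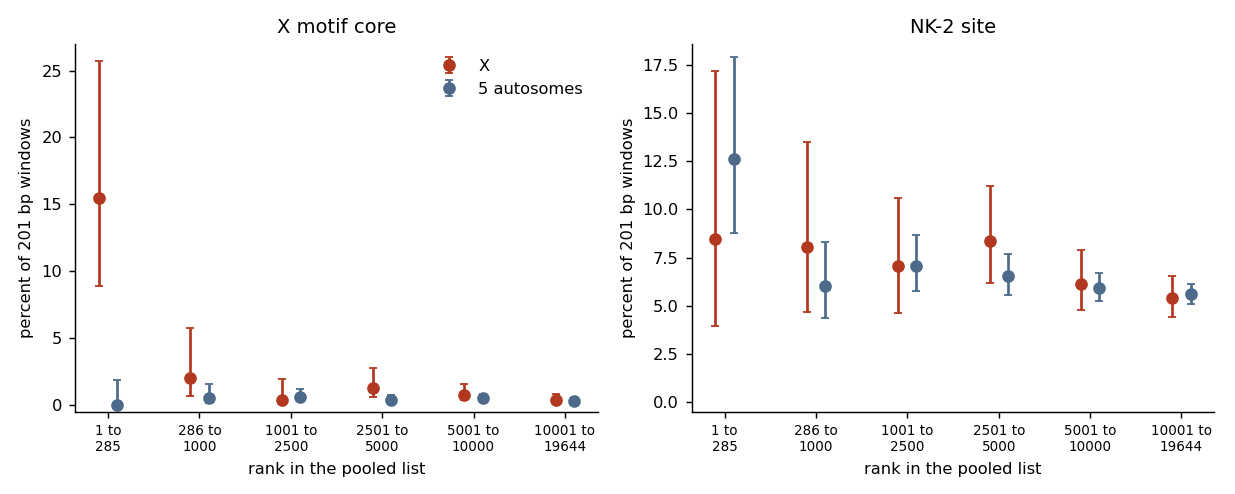
Percent of windows of 100 bp to either side of the summit with the X motif core (left) and the NK-2 site (right) by rank in the pooled list, strongest regions at the left. X is in red, the 5 autosomes together in blue, and bars are 95% Wilson intervals. The core reached 15.5% in the strongest X bin and 2.01% in the next, while the NK-2 shares of X and the autosomes had overlapping intervals in every bin.

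X regions with the core ranked higher than those without it. The core was looked for after the X peaks had been seen, so these figures include the peaks seen beforehand. Of the 35 X regions with a core in the window, 11 were thresholded (31.4%, 18.6 to 48.0), against 1.64% of X regions without it. Their median rank percentile was 18.8, against 49.6 for X regions without the core. In the strongest 10% of the pooled list were 14 of the 35, the 11 thresholded ones among them. Outside the thresholded list the core share of X windows was 2.01% at ranks 286 to 1000. It was 0.352% to 1.28% at each weaker range of ranks, and every interval overlapped that of the autosomes. On the autosomes 64 regions held the core, 0 were thresholded, and their median rank percentile was 45.7. Both replicates supported 25 of the 35 (71.4%), against 36.6% of X regions without the core. For all X regions that share was 97.2% in the thresholded list and 20% beyond rank 10000, so it moved with strength. The core's surroundings also differed. G stood directly before the core in 12 of 14 copies at thresholded X peaks (85.7%, 60.1 to 96.0), in 7 of 25 copies at other X regions (28.0%) and in 14 of 64 at autosomal regions (21.9%). A stood directly after it in 11 of 14, 8 of 25 and 16 of 64 copies, in the same order. Of the 11 peaks, 3 held a pair of copies, so the 14 copies are not all from separate peaks. Core centres lay 4 to 89 bp from the summit, with a median of 25.5 bp.

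The 11 core peaks ranked from 16 to 247 with a median signal value of 55.3, against 41.4 for the 60 other X peaks. Among the 20 strongest X peaks 7 had the core, and among the 10 strongest 4 did. Those 7 were the peaks near *W02H3.3* (rank 16), in *pks-1* (20), in *mom-1* (22), in *kin-20* (31), and near *F20B6.9* (48), *F22H10.2* (53) and *nspc-17* (63). All 11 had a summit in both replicates, and 9 were in the top lists of both (81.8%, 52.3 to 94.9), against 21 of the 60 others (35%, 24.2 to 47.6). The 2 groups differed in strength, with a median pooled rank of 53 for core peaks and 138 for the others. Of the 20 strongest X peaks, 7 of them with the core, 18 were in both top lists (90%). Being in a top list is itself a measure of strength, so these shares cannot tell the core apart from strength. The core peaks had median signal values of 24.1 in replicate 1 and 29.1 in replicate 2, against 17.5 and 24.3 for the other X peaks. By position 8 were intergenic, 2 intronic and 1 in a coding exon, and 2 lay in a promoter window, so the core peaks were not a group beside 5' ends. Their median GC content was 42.3%, against 51.2% in the other X peaks. Only the rank 16 peak also held an NK-2 site.

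One core peak lay near a sex determination gene. The rank 161 peak (chrX:8036227-8036570) was 4914 bp upstream of *xol-1*, the switch gene that is active in males and directs male fate, and its window held 2 cores. Its signal values were 19.1 in replicate 1, 26 in replicate 2 and 38.8 in the pooled list, and it was in the top lists of both replicates. The tRNA gene C18A11.t2 (chrX:8036685-8036757) lay nearer to this summit than *xol-1*, though beyond 200 bp. The pooled region at that tRNA gene, rank 402 and not thresholded, was matched by the same regions of replicate 1 (rank 142) and replicate 2 (rank 136). The other X genes of the sex determination and dosage compensation list were *sex-1*, *fox-1*, *ceh-39*, *sdc-1* and *sdc-2*. *fox-1* and *sex-1* are X signal elements, counted by the embryo to measure its number of X chromosomes, and *sdc-2* encodes the protein that brings the dosage compensation complex to X. All 6 genes had a pooled region and only *xol-1* a thresholded one, where 63.7% of all X genes had a pooled region and 2.23% a thresholded one. The strongest region of the others was at *fox-1* (rank 417, value 28.0, 262 bp upstream, with an NK-2 site), and those of *sex-1*, *sdc-1*, *sdc-2* and *ceh-39* ranked 3093, 3017, 1990 and 15418.

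The NK-2 site, the sequence that the homeodomain of CEH-22 is known to bind, did not set X peaks apart. It lay in 6 of 71 thresholded X windows (8.45%, 3.93 to 17.2), against 26 of 206 autosomal peaks (12.6%, 8.76 to 17.9) and a background of 6.06% of all nuclear pooled windows. In X regions outside the thresholded list it lay in 6.20% (5.46 to 7.03) of windows, so the X peaks and the weaker X regions had overlapping intervals. The letters of the NK-2 site read backwards, a control of equal base composition, were in 2 of 71 X peaks (2.82%) and 3 of 206 autosomal peaks (1.46%). Outside the thresholded list this control was in 6.06% of X windows and 5.72% of autosomal windows. The NK-2 shares there were close to it, at 6.20% and 5.93%. The 6 X peaks with an NK-2 site had ranks 16, 25, 88, 98, 173 and 239. The rank 88 summit was in an intron of *C44H4.4*, 1196 bp upstream of *lron-1*, and its site was centred 7 bp from the summit. It was the strongest X peak of replicate 1 (41.8, rank 8) and weak in replicate 2 (9.91, rank 8920). The rank 239 summit was in an intron of *inso-1* with 8.64 in replicate 1 and 25.1 in replicate 2. The NK-2 peaks therefore ranged from strong in both replicates (rank 16) to strong in one.

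Over all genes on X, 63.7% of 2731 protein-coding genes had a pooled region and 61 had a thresholded peak (2.23%, 1.74 to 2.86), against 52.7% and 1.15% (1.00 to 1.32) of autosomal genes. The counts for the gene lists stand beside those shares, and the lists were chosen with earlier results of these data known. Of 4 pharynx genes on X all had a region and 1 a thresholded peak. It was *peb-1*, a DNA-binding protein of pharyngeal development, with an intronic peak at rank 225 that had values of 16 in replicate 1, 19 in replicate 2 and 34.6 in the pooled list. *myo-2*, which encodes a myosin of pharyngeal muscle, had its strongest region at rank 949, with 6.85 in replicate 1 and 18.1 in replicate 2. Of 14 genes of muscle contraction and attachment 10 had a region and 1 a thresholded peak, the actin gene *act-4*. Its intronic peak (chrX:4961612-4961955, rank 173) had values of 13.2 in replicate 1, 21.5 in replicate 2 and 37.7 in the pooled list, and the NK-2 site shown above was centred 14 bp from the summit. *peb-1* was in the top list of replicate 1 (rank 244) and not of replicate 2 (rank 498), and *act-4* in that of replicate 2 (rank 284) and not of replicate 1 (rank 428).

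On the other lists, of 17 neuronal genes 14 had a region and none a thresholded peak, and the strongest was at *mec-2*, a stomatin-like gene of touch neurons, at rank 612. Of 8 genes of intestine and yolk 4 had a region and none a thresholded peak, with *elt-2*, the main intestinal GATA factor, strongest at rank 2808. Of 22 genes for developmental transcription factors 16 had a region and 1, *peb-1*, a thresholded peak. *lin-14*, a heterochronic regulator, came next with an intronic region at rank 304, just outside the thresholded list, held within its long span but too far from its 5' end to be assigned to it. Of 8 genes of epidermis and matrix 7 had an assigned region, and *ajm-1*, an apical junction gene that works with *dlg-1*, held the rank 188 peak in an intron (11.2 in replicate 1 and 23.7 in replicate 2). Of 3 genes of the microRNA pathway that were found on X, *ain-1* and *alg-1* had thresholded peaks and *mir-84* had no region. *let-7*, also on this list, was not matched by name in the annotation and is not counted. *alg-1* encodes an Argonaute for microRNAs, and its peak at rank 159 (10.2 in replicate 1 and 27.1 in replicate 2) lay in an untranslated exon 1720 bp downstream of the 5' end.

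Of the 1739 X genes with an assigned pooled region, those with the most regions were *hbl-1*, a Hunchback-like heterochronic gene, with 10, *dlg-1* and *sup-12*, a muscle splicing regulator, with 9 each, and *ftt-2* with 8. *kin-20*, *sma-9*, *F09C8.2* and *bet-2* had 7 each. The strongest regions of *hbl-1* and *sup-12* ranked 420 and 807, outside the thresholded list, whereas *dlg-1* and *ftt-2* each had 1 thresholded peak among their regions.

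Transfer RNA genes were frequent neighbours of X peaks. X carries 276 annotated tRNA genes, against 57 (II) to 78 (V) on each autosome. A tRNA gene lay within 200 bp of 8 of the 71 X peaks (11.3%, 5.82 to 20.7), against 7 of 206 autosomal peaks (3.40%, 1.66 to 6.85). Among all pooled regions the shares were 2.44% (1.99 to 2.99) on X and 0.878% (0.744 to 1.03) on the autosomes. Per tRNA gene, a thresholded peak lay within 200 bp of 3.62% (1.98 to 6.54) of X genes, against 2.08% (1.01 to 4.24) of autosomal ones, with overlapping intervals. A pooled region lay within 200 bp of 33.7% (28.4 to 39.5) of X tRNA genes, against 42.0% (36.8 to 47.3) of autosomal ones. The strongest such X peaks were at R04A9.t1 (rank 39, with 27.4 in replicate 1 and 35.7 in replicate 2) and C04A11.t1 (rank 49, with 31.2 and 23.9). The others were at C06G1.t1 (rank 93), F15G9.t1 and F15G9.t2 (122), F41D9.t3 (148), F41D9.t1 (160), C16B8.t2 and C16B8.t3 (218), and C28G1.t1 (265). None of these 8 peaks had an X motif core or an NK-2 site, and all 8 had a summit in both replicates. No X peak lay near a small nucleolar RNA gene, a count of 0 of 71 that allows a share of up to 4.23%, against 25 of 206 autosomal peaks (12.1%, 8.36 to 17.3). X has 33 such genes, against 313 on the autosomes. One peak, rank 276, lay within 200 bp of the microRNA gene *mir-251*. Genes that are short and heavily transcribed often give ChIP signal whatever the antibody's target, and their part in the X peaks was not tested. A tRNA, snoRNA, snRNA or rRNA gene lay near 11.3% of X peaks and 17.5% of autosomal peaks, so leaving such peaks out had to raise the X share. X then held 63 of 241 thresholded peaks (26.1%). The 11 core peaks were all on X, so leaving them out had to lower the share, to 60 of 274 (21.9%, 17.4 to 27.2). Neither share tests a cause.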

How the data were processed

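ChIP-seq of 2 biological replicates, which form 1 group per the labels, was analysed from the authors' region lists. The deposited listing says that a relaxed list was made for each replicate from its own alignments with a control and for the pooled replicates in the same way, and that IDR, which tests how reproducible ranks are, gave the thresholded list. The deposited signal value is a score of the authors' peak caller. Caller, aligner and their versions: not given in the sources used here. Read depth is unknown.

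Coordinates are 1-based ce11. Gene models came from Ensembl release 115 and sequence from RefSeq WBcel235. Summits were assigned to every protein-coding gene with a 5' end between 1000 bp downstream and 200 bp upstream of the summit in the gene's direction (the promoter window), else to the nearest 5' end within 5000 bp. A replicate match was the strongest region with a summit within 200 bp. Motifs were searched on both strands within 100 bp of the summit. Shares are given with 95% Wilson intervals; a count of 0 allows 3 of the total. With 1 group no test was made, and intervals cover counting error over regions.

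Genes named were those at the 20 strongest X peaks, list genes with a thresholded peak or else the strongest of the list, the 5 genes with the most regions (ties included) and short RNA genes near a thresholded peak. *sex-1*, *sdc-1*, *sdc-2*, *ceh-39*, *myo-2*, *ldb-1*, *lron-1*, *C44H4.4*, *inso-1*, *mir-84* and the *F09A5.3* peak at rank 100 were named after their values were seen, as were *fox-1* and *lin-14*. The members and lists were chosen with earlier results of these data known. Functions were tested on simulated data. Python 3.11.15, pandas 2.3.3, numpy 2.4.6, scipy 1.17.1 and matplotlib 3.10.9 were used. Alternatives are given in the closing section.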

Additional observations from a re-analysis of the deposited data

How the results depend on the processing

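Of 67 alternative values for 13 results, 52 stayed inside the 95% interval of the main share (for the median rank, within the spread of the replicates). Each replicate alone gave X 21.4% to 23.9% of strong regions, 18.7% to 19.2% of all regions, 18.9% to 20.9% of the strongest 10%, median rank percentiles of 49.5 to 49.9, 65.6% to 70.6% intergenic peaks, 39.5% to 42.5% intergenic regions, 19.9% to 20.9% of regions and 27.9% to 39.7% of peaks in promoter windows, NK-2 shares of 9.84% to 10.3% (peaks) and 5.66% to 6.12% (relaxed), and X motif core shares of 16.4% to 17.6%. Without replicate 1 the median rank percentile (49.9) and the promoter share of X regions (19.9%) lay outside, and the coding share of strong X regions was 9.84% (autosomes 11.2%). The other values outside came with another width of window or match. With summits within 100 bp, 500 bp or any overlap, 24.7%, 49.4% and 45.3% of X regions and 87.3%, 100% and 100% of X peaks had both replicates (autosomal regions 23.3%, 47.4% and 42.8%). Promoter windows of 500 and 200 bp, 1000 and 0 bp, or 2000 and 500 bp up- and downstream held 14.8%, 17.8% and 36.1% of X regions (autosomes 16%, 21% and 44.0%), and the first held 18.3% of X peaks (autosomes 30.6%). NK-2 windows of 50 bp to each side held the site in 2.82% of X peaks (autosomes 7.77%) and 3.35% of relaxed X regions, and of 150 bp in 8.71% of the latter. With 61 strong X regions in replicate 2 alone, the NK-2 share of X (9.84%) was above the autosomal share (9.30%), while it was below it in the pooled list. Alternatives for the X motif core were chosen after seeing the data and gave 9.86% to 22.5% of X peaks. No paired analysis was possible because there was 1 group. Read depth is unknown, and neither the control nor the insertion site of the transgene was analysed here.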
